A study of Mus musculus with 4 samples.

Results

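The 10 genes described here, Arntl, Clock, Per1, Per2, Per3, Cry1, Nr1d1, Nr1d2, Dbp and Tef, are core or output genes of the circadian clock, and they were taken by name from the 32286 genes counted in every library. They were followed in single cells from the mouse spine that carry the tdTomato reporter (tdTom+), which marks the Prss56 lineage. The study sequenced 4 libraries, 1 for each of a control and a mutant at 3 months and at 12-16 months of age. Control mice were Prss56Cre/+;R26tdTom/tdTom;Nf1+/+ and mutant mice were Prss56Cre/Cre;R26tdTom/tdTom;Nf1fl/fl. All groups thus carry Cre driven from the Prss56 locus and the R26tdTom reporter. The controls carry 1 Cre allele and the mutants 2, so Nf1 genotype and Cre dose cannot be told apart. The vertebrae, from thoracic 11 to lumbar 2, were chosen for visible tdTom, and viable tdTom+ cells were sorted away from cells positive for CD11b, CD31 or CD45. How many mice entered each library is not given in the sources used here. Neither is the hour at which tissue was taken, and mice were kept in 12 h of light and 12 h of dark, so hour of collection and condition cannot be told apart.

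The clock is a transcriptional loop that runs in nearly every cell with a period of about a day. CLOCK and ARNTL (BMAL1) bind E-boxes and turn on the Per and Cry genes, whose products return to block them. NR1D1 and NR1D2 (REV-ERB alpha and beta) repress Arntl through ROR elements. Arntl and many, though not all, of the E-box genes thus peak at roughly opposite times of day. DBP and TEF carry the rhythm to output genes through D-boxes. Chondrocytes and intervertebral discs have such clocks, and glucocorticoids can set them, in part through Per1.

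The sequences by which these genes are known to be tied into the loop were searched for in RefSeq promoter windows (GRCm38.p6), which run from 250 bases before to 50 bases after a start site. Of the 10 genes, 9 had a window, and they had 14 windows between them. Each motif was searched on both strands, and the core is in capitals in the lines that follow, each 5′ to 3′ on the strand of the gene. They are shown because they are the kinds of site through which the loop turns these genes on and off.
Per1, E-box CACGTG, chr11:69098763-69098808, plus strand: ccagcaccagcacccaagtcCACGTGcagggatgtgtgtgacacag
Cry1, E-box CACGTG, chr10:85185089-85185134, minus strand: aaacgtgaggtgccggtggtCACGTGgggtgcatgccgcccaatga
Tef, E-box CACGTG, chr15:81802526-81802571, plus strand: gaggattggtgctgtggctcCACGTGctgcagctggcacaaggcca
Nr1d1, variant E-box CACGTT read on the other strand, chr11:98775380-98775425, minus strand: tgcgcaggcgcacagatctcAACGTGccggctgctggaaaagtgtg
Per3, D-box TTATGTAA, chr4:151044843-151044890, minus strand: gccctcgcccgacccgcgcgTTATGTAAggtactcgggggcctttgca
Per3, D-box TTATGTAA, chr4:151044796-151044843, minus strand: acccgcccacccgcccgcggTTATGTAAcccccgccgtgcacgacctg
Arntl, ROR element TAGGTCA, chr7:113207529-113207558, plus strand: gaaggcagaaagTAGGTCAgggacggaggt

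The E-box CACGTG was in 4 of the 14 windows (Per1, Cry1 and both windows of Tef that hold it) and in 7.15% of all 32851 windows. The variant CACGTT was in 2 (Nr1d1 and Cry1) and in 4.68% of all windows. The D-box, written TTATGTAA or TTACGTAA, was in 1 (Per3, with both sites shown) and in 1.06% of all windows, and the ROR element, TAGGTCA or TGGGTCA, was in 1 (Arntl) and in 6.45%. A match describes these letters only. The windows of Dbp, Nr1d2 and Clock held none of the motifs, which says nothing of sites elsewhere in those genes.

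After the filters (more than 750 UMIs, more than 500 genes and under 7% mitochondrial UMIs), 717 cells passed in the 3-month control, 484 in the 3-month mutant, 135 in the 12-16-month control and 421 in the 12-16-month mutant. Libraries held 2154537 to 9429264 UMIs in passing cells and shared 0 cell barcodes. Cartilage cells (at least 1 Sox9 and 3 Acan UMIs) numbered 562, 377, 89 and 258 in that order of libraries, and bone/stroma cells (at most 2 Acan and at least 1 Runx2 UMI) 45, 39, 27 and 83. All 8 cartilage markers were detected in the cartilage cells of every library, with a summed level of 17377 to 20627 CPM (UMIs of a gene for every 1000000 UMIs of those cells), against 175 to 1041 in bone/stroma cells. All 9 bone and stroma markers were detected in bone/stroma cells of every library, at a summed 89218.5, 11547, 141832 and 55904 CPM in the same order. Each of the 9 was lower in the 3-month mutant than in the 3-month control. Bglap was at 208 CPM against 22881 CPM, and Col1a1 at 5674 CPM against 49203 CPM. The part of this difference in the bone/stroma contrasts was not tested. The sum of 6 hematopoietic markers in bone/stroma cells was 17.7, 1900, 310 and 503 CPM, and that of 4 mural markers 894, 11.6, 13.7 and 609 CPM. The part of these cells in the results on bone/stroma was not tested. Nf1 itself was at 134, 160, 145 and 124 CPM in cartilage cells. Counting of 3′ ends can miss a deletion inside a gene, so this level checks nothing, and control and mutant mean the library labelled so.

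The clock genes gave 12979 UMIs in passing cells, 11335 of them in cartilage cells and 917 in bone/stroma cells, and all 10 passed the filter on low counts. Because there is 1 library per condition, libraries were compared without a test, as ratios with exact 95% intervals that cover counting error only. Both cell classes of the same library were compared over the 4 libraries with edgeR, with library as a term, and the gates that define the classes use no clock gene. The 4 libraries, from separate conditions, stand as the replicates of that test.

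**Figure D1:**
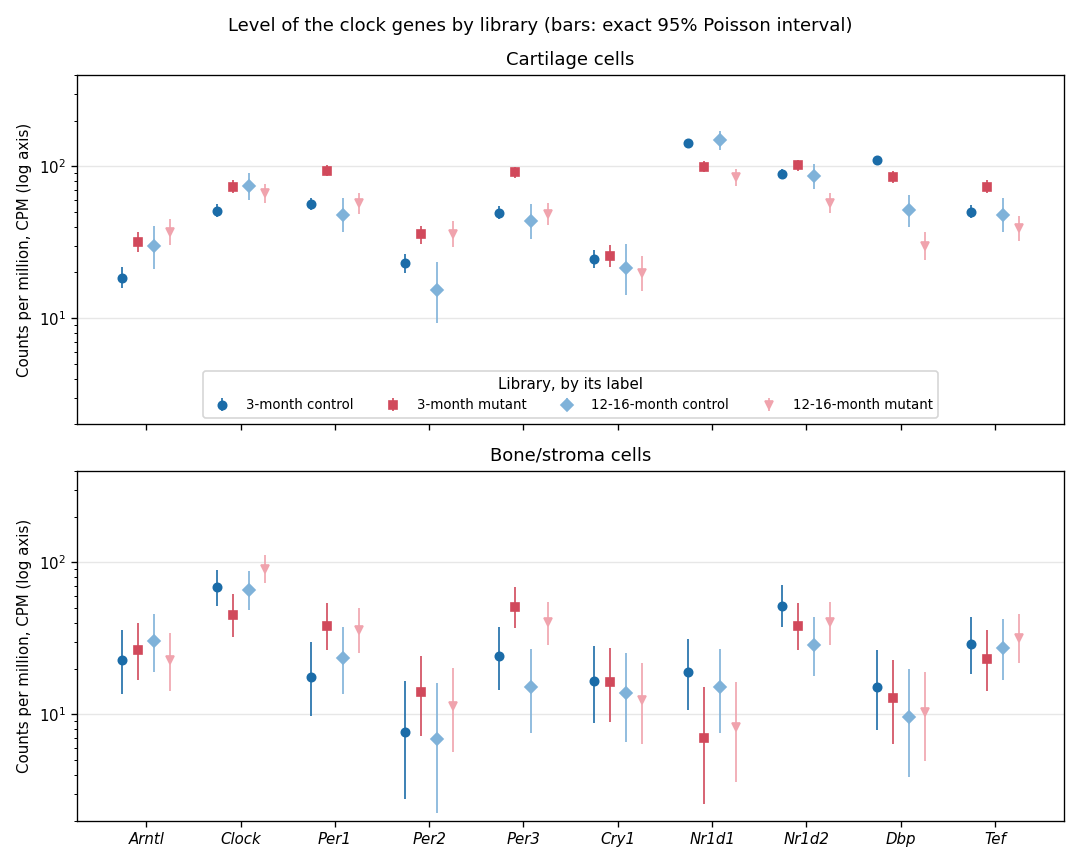
Level of each clock gene (CPM, log axis) in cartilage cells (top) and bone/stroma cells (bottom) of the 4 libraries, with exact 95% Poisson intervals as bars. Nr1d1 lay between 84.5 and 149 CPM in cartilage cells and between 6.96 and 19.0 CPM in bone/stroma cells, whereas the levels of Arntl and Clock in the classes overlapped.

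In cartilage cells 7 of the 10 genes (Nr1d1, Nr1d2, Per1, Per2, Per3, Dbp and Tef) were called above their level in bone/stroma cells of the same libraries, while Cry1 and the activators Arntl and Clock were not called. Nr1d1, the repressor of Arntl, was at 142, 99.4, 149 and 84.5 CPM in cartilage (3-month control, 3-month mutant, 12-16-month control, 12-16-month mutant, an order kept throughout) and at 19.0, 6.96, 15.1 and 8.26 CPM in bone/stroma. Every cartilage value lay far above every bone/stroma value. The log2 difference was 3.40 ± 0.26 (SE, 4 libraries, edgeR adjusted p = 0.000237), and the ratio was 7.50, 14.3, 9.88 and 10.2 in the single libraries.

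Dbp, the output factor of the D-box, was at 110, 84.9, 51.2 and 30.0 CPM in cartilage and at 15.2, 12.8, 9.60 and 10.3 CPM in bone/stroma. The classes did not overlap, though the ratio was lowest, 2.91, in the 12-16-month mutant, against 5.33 to 7.21 in the other libraries. Its log2 difference was 2.52 ± 0.28 (SE, edgeR adjusted p = 0.000888).

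The Period genes, which encode the negative limb, were higher in cartilage as well. Per2 was at 23.0, 35.6, 15.3 and 36.0 CPM in cartilage and at 7.60, 13.9, 6.86 and 11.4 CPM in bone/stroma. Per1 was at 56.7, 93.6, 48.2 and 56.9 CPM in cartilage and at 17.7, 38.3, 23.3 and 36.1 CPM in bone/stroma. Neither gene's classes overlapped, and the log2 difference was 1.58 ± 0.26 for Per2 and 1.26 ± 0.23 for Per1 (SE, edgeR adjusted p = 0.00514 and 0.00766). Per3 was at 49.5, 91.0, 43.6 and 48.6 CPM in cartilage and at 24.1, 51.0, 15.1 and 40.2 CPM in bone/stroma. Here the classes overlapped between libraries, and the log2 difference of 0.99 ± 0.23 (SE, edgeR adjusted p = 0.0191) did not hold in every setting: with cartilage cells that lack a Runx2 UMI it was -0.07 (edgeR adjusted p = 0.903), and without the 3-month control or the 12-16-month control the adjusted p was 0.0851 or 0.0971. In cells free of Ptprc, Acta2 and Cdh5 UMIs, markers of blood, mural and endothelial cells, it was 0.0875.

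Nr1d2, the second REV-ERB, was at 88.7, 101, 86.4 and 57.6 CPM in cartilage and at 51.9, 38.3, 28.8 and 40.2 CPM in bone/stroma. Its classes did not overlap, and it was called (log2 difference 1.16 ± 0.24 SE, edgeR adjusted p = 0.0124), but not without the 12-16-month control (adjusted p = 0.0745). Tef, the other D-box factor, was at 50.4, 73.6, 48.2 and 39.1 CPM in cartilage and at 29.1, 23.2, 27.4 and 32.0 CPM in bone/stroma. Its classes did not overlap either, and it was called by a small margin (0.99 ± 0.28 SE, edgeR adjusted p = 0.0413). The call was lost without the 3-month control, the 12-16-month control or the 12-16-month mutant (adjusted p = 0.112, 0.115 and 0.0731). It was lost too with stricter gates on Acan and Runx2, in cells free of other-type UMIs and in cartilage without Runx2 (adjusted p = 0.116, 0.0521 and 0.101).

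The remaining 3 genes were not called. Cry1, a partner of the PER proteins, was at 24.6, 25.7, 21.4 and 19.9 CPM in cartilage and at 16.5, 16.2, 13.7 and 12.4 CPM in bone/stroma. These values did not overlap, but the log2 difference of 0.75 ± 0.24 (SE) had an edgeR adjusted p of 0.0622. Arntl was at 18.5, 31.8, 29.8 and 37.0 CPM in cartilage and at 22.8, 26.7, 30.2 and 22.7 CPM in bone/stroma, a log2 difference of 0.27 ± 0.27 (SE, edgeR adjusted p = 0.511). Clock was at 51.1, 73.6, 74.2 and 66.4 CPM in cartilage and at 68.4, 45.2, 65.8 and 90.8 CPM in bone/stroma, a difference of 0.09 ± 0.26 (SE, edgeR adjusted p = 0.840). For these activators the classes overlapped and the direction differed between libraries.

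In all, 7 of the 10 clock genes were higher in cartilage and 0 lower by edgeR, where 13.4% of the 9798 genes tested were higher and 11.0% lower. The same number, 7 of 10, had 4 cartilage levels that all exceeded the 4 bone/stroma levels, against 13.7% of the genes tested. The median log2 difference of the clock genes was 1.07, and that of all genes tested -0.00. Without the 12-16-month control, 4 were called. Cartilage markers in bone/stroma cells came to at most 1041 CPM, as given above, and the part of free RNA in the levels of bone/stroma was not tested.

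**Figure D2:**
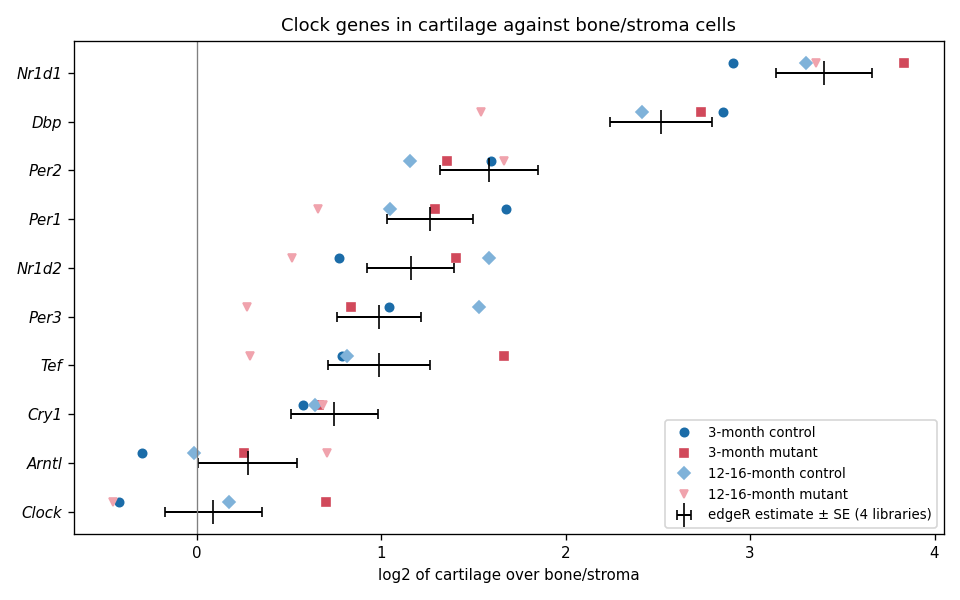
Log2 ratio of the level in cartilage to that in bone/stroma for each clock gene: black marks give the edgeR estimate ± SE over 4 libraries, and coloured symbols the ratio of CPM within each library. Nr1d1 and Dbp lie farthest to the right, at 3.40 and 2.52, and Arntl and Clock have symbols on both sides of 0.

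A wider list of 19 clock genes that work beside these was read in the same way. Of the 14 tested, 4 were higher in cartilage, 0 lower and 10 not called, with a median log2 difference of 0.47. Of all 9798 genes tested, 13.4% were higher and 11.0% lower, with a median of -0.00. Among the genes of the list not tested, Timeless was lower in cartilage, at 1.75 to 6.12 CPM against 6.86 to 33.6 CPM in bone/stroma. Ciart went the other way, at 2.10 to 3.87 CPM in cartilage against 0 in bone/stroma. Both had few UMIs. Bhlhe41 and Bhlhe40, E-box repressors that compete with CLOCK and ARNTL, were higher by 4.94 and 3.03 on the log2 scale (edgeR adjusted p = 0.000827 and 0.00392). Bhlhe41 was at 240, 260, 233 and 280 CPM in cartilage and at 22.8, 2.32, 4.11 and 11.4 CPM in bone/stroma. Cry2, the second cryptochrome, was higher by 2.99 (edgeR adjusted p = 0.00120), at 79.2 to 104 CPM in cartilage against 4.11 to 20.9 CPM in bone/stroma. Usp2, a deubiquitinase under clock control, was higher by 2.36 (edgeR adjusted p = 0.00197). Npas2, which can stand in for CLOCK, had a log2 difference of -0.03 (edgeR adjusted p = 0.958). Like Clock and Arntl, it was not called. Hlf, a D-box factor related to DBP and TEF, was not called either (log2 difference -1.0, edgeR adjusted p = 0.209). Of its UMIs in bone/stroma, 107 came from the 3-month mutant, whose bone/stroma cells had the highest sum of hematopoietic markers (1900 CPM).

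Between libraries, Dbp moved most in cartilage cells. Its level of 110 CPM in the 3-month control (906 UMIs) was the highest, 84.9 in the 3-month mutant (496 UMIs) and 51.2 in the 12-16-month control (67 UMIs) lay between, and 30.0 in the 12-16-month mutant (86 UMIs) was the lowest. Each neighbour in that order differed from the next by more than counting error. At 3 months, mutant over control was 0.774 (95% interval 0.692 to 0.864), and at 12-16 months it was 0.587 (0.421 to 0.820). The ratio of 12-16 to 3 months was 0.467 (0.359 to 0.599) in the control and 0.354 (0.278 to 0.446) in the mutant. These pairs of ratios share libraries.

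Arntl ran the other way. It was lowest in the 3-month control, at 18.5 CPM (153 UMIs), and stood at 31.8, 29.8 and 37.0 CPM in the other libraries, which did not differ from each other beyond counting error. The mutant held 1.72 times (1.38 to 2.14) the control's level at 3 months, and 1.24 times (0.853 to 1.84) at 12-16 months. Npas2 had a like order, at 14.5, 40.7, 25.2 and 46.8 CPM, with a ratio of 2.80 (2.24 to 3.52) between mutant and control at 3 months.

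Nr1d1 was lower in the mutant than in the control, 0.698-fold (0.631 to 0.771) in the younger pair and 0.567-fold (0.468 to 0.688) in the older, and within a genotype it moved less with age than Dbp did. At 12-16 months it was at 1.05 (0.894 to 1.22) times its level at 3 months in the control and at 0.850 (0.729 to 0.990) times in the mutant. Nr1d2 was 1.14 (1.02 to 1.28) times as high in the mutant at 3 months and 0.667 (0.522 to 0.855) times at 12-16 months. In cartilage cells with no Runx2 UMI, its ratio at 3 months was 0.851 (0.709 to 1.02), on the other side of 1. In those with a Runx2 UMI it was higher in the mutant at 3 months, at 116 CPM against 91.6 CPM in the control.

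Per1 and Per3 were highest in the 3-month mutant. Per1 was 1.65 (1.46 to 1.87) and Per3 1.84 (1.61 to 2.10) times the 3-month control there, while at 12-16 months the ratios were 1.18 (0.879 to 1.61) and 1.11 (0.813 to 1.54), within counting error of no difference. Tef was likewise higher in the 3-month mutant, 1.46 (1.27 to 1.68), and Clock 1.44 (1.26 to 1.65). In cartilage cells with no Runx2 UMI the ratio turned below 1 for Tef, 0.863 (0.676 to 1.09), and for Per3 (given with the division by Runx2), while Clock stayed at 1.33 (1.07 to 1.63) and Per1 at 1.27 (1.03 to 1.55). Per2 was higher in the mutant at both ages, 1.55 (1.26 to 1.89) and 2.35 (1.45 to 4.01), the latter from 103 and 20 UMIs. Cry1 was the steadiest in all cartilage cells, 1.04 (0.840 to 1.30) and 0.930 (0.582 to 1.52). On either side of the division by Runx2 it was higher in the 3-month mutant than in its control. It was at 35.7 against 27.2 CPM without Runx2, a ratio of 1.32 (0.990 to 1.73), and at 20.0 against 15.6 CPM with it.

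**Figure D3:**
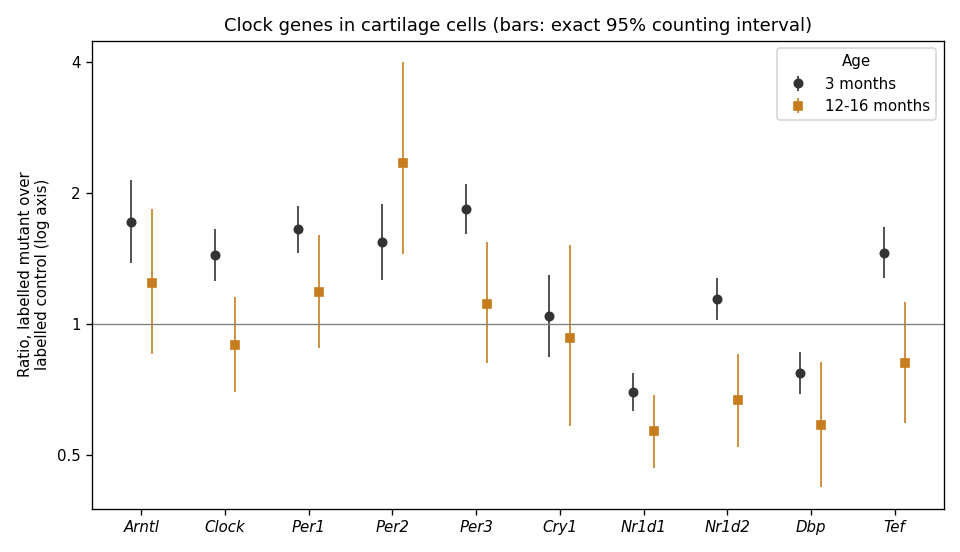
Ratio of the level in the labelled mutant to that in the labelled control (log axis) for each clock gene in cartilage cells at 3 months (circles) and 12-16 months (squares), with exact 95% counting intervals as bars. Nr1d1 and Dbp lie below 1 at both ages, Per2 lies above 1 at both, and Nr1d2 lies above 1 at 3 months (1.14) and below it at 12-16 months (0.667), though in cells with no Runx2 UMI, not drawn, it is 0.851 at 3 months.

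Few of these differences reached 2-fold. Counting only genes for which both libraries together held 20 UMIs or more, 0 of 10 clock genes in cartilage were 2-fold apart between mutant and control at 3 months, against 17.6% of all genes counted so. At 12-16 months 1 was (Per2), against 8.15%. Between ages, 1 was 2-fold apart in the control (Dbp), against 12.1%, and 1 in the mutant (Dbp), against 11.5%. By this measure the clock genes did not stand above the background. Their median log2 ratio was 0.54 for mutant over control at 3 months, where the median of all genes was 0.08, and -0.13 at 12-16 months, where it was -0.01. For 12-16 over 3 months it was -0.12 in the control and -0.54 in the mutant, with all genes at 0.09 and -0.04.

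In bone/stroma cells, where the clock genes had 5 to 88 UMIs a library, the intervals were wide. Mutant over control at 3 months was 2-fold apart for 3 of the 9 genes with enough UMIs, against 36.1% of all genes: Per1 2.16 (1.12 to 4.37), Per3 2.12 (1.21 to 3.85) and Nr1d1 0.366 (0.116 to 0.999). The count was 1 with TMM factors, without the 5% of cells with the most UMIs, or with stricter gates. The TMM factor was higher in that mutant than in its control, which lowers each ratio. The gene left with TMM factors was thus Nr1d1, and Per1 and Per3 were under 2-fold. Nr1d1 rested on 6 and 15 UMIs, and in cells free of Ptprc, Acta2 and Cdh5 UMIs its log2 ratio turned to 0.92. At 12-16 months it was 1 of 7 (Per3, 2.67, 1.34 to 5.78), against 17.8%. Between ages it was 0 of 8 in the control, against 12.0%, and 1 of 9 in the mutant (Clock, 2.01, 1.36 to 3.01), against 34.9%. The log2 ratio of Clock there was 0.02 in cells free of other-type UMIs. For mutant over control at 3 months in bone/stroma, the median log2 ratio was -0.25 for the 9 clock genes and 0.31 for all genes. By CPM, without TMM factors, Per1 and Per3 were above the control in the 3-month mutant in both cell classes. Dbp, at 15.2, 12.8, 9.60 and 10.3 CPM, did not differ between libraries beyond counting error in bone/stroma.

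The ratio of Dbp to Arntl UMIs puts an E-box output over an activator that peaks at another time of day, and it needs no scaling by depth. In cartilage cells it was 5.92 (95% interval 4.98 to 7.07) in the 3-month control, 2.67 (2.25 to 3.17) in the 3-month mutant, 1.72 (1.14 to 2.62) in the 12-16-month control and 0.811 (0.603 to 1.09) in the 12-16-month mutant. The first lay above the rest and the last below the rest, while the intervals of the 3-month mutant and the 12-16-month control overlapped. In bone/stroma cells the ratio was 0.667, 0.478, 0.318 and 0.455, and in the other passing cells 1.14, 1.12, 1.40 and 0.889, with intervals that overlapped within each class. With every cell weighted equally, the ratio in other cells was 0.254 in the 3-month control and 5.82 in the 12-16-month control, so no likeness of the libraries is read from it. The ratio of Nr1d1 to Arntl in cartilage was 7.69, 3.12, 5.0 and 2.28, higher in the control at either age.

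**Figure D4:**
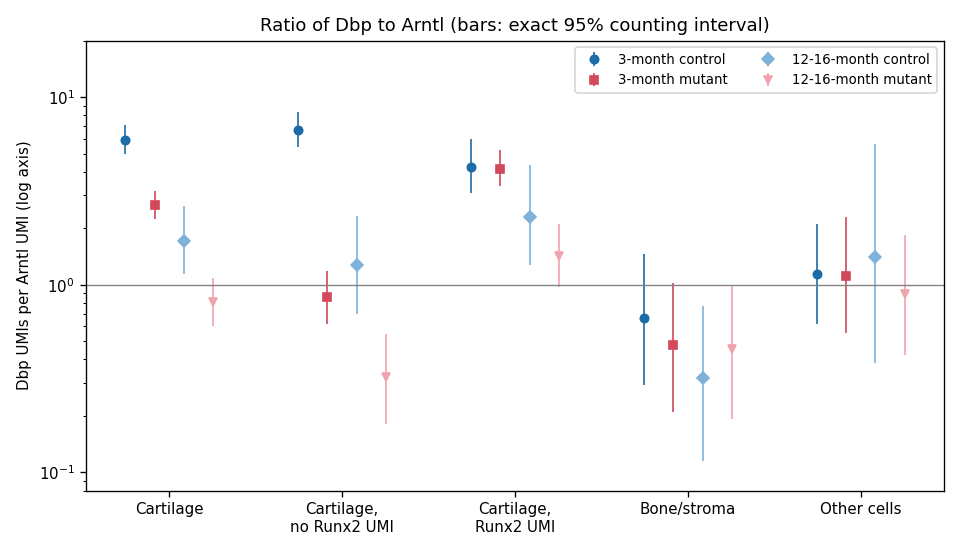
Dbp UMIs per Arntl UMI (log axis) in each library for cartilage cells, cartilage cells without and with a Runx2 UMI, bone/stroma cells and other passing cells, with exact 95% counting intervals as bars. In cartilage the ratio runs from 5.92 in the 3-month control to 0.811 in the 12-16-month mutant, and in the 3-month mutant it is 0.857 without and 4.16 with a Runx2 UMI.

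Cartilage cells of the spine include cells that also carry Runx2, a factor of hypertrophic cartilage and bone, and some of the clock genes differed between these and the rest. Cells with a Runx2 UMI made up 16.7% of cartilage cells in the 3-month control, 51.2% in the 3-month mutant, 27.0% in the 12-16-month control and 31.8% in the 12-16-month mutant. They were deeper, with a median of 15820.5 to 25178 UMIs per cell against 7092 to 11984. The part of depth was not tested, and the division was looked at with the values known, so the numbers that follow are a description with counting intervals.

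Per3 was higher in the cells with Runx2 in 4 of 4 libraries, at 85.7, 127, 60.6 and 82.2 CPM against 39.0, 26.7, 28.7 and 15.3 CPM without it. The ratio was 2.19 (1.79 to 2.69), 4.76 (3.60 to 6.40), 2.11 (1.19 to 3.84) and 5.38 (3.39 to 8.92). Within cells that lack Runx2, Per3 was lower in the mutant than in the control at 3 months, 0.684 (0.502 to 0.917), and within cells that have it higher, 1.48 (1.24 to 1.79), while the ratio in all cartilage cells, 1.84, lay above both. The share of cells with Runx2 was 16.7% in that control and 51.2% in that mutant, as given above.

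Dbp showed the division in the mutants. It was at 110 CPM both without and with Runx2 in the 3-month control, a ratio of 1.00 (0.854 to 1.17). In the 3-month mutant it was at 34.3 CPM without and 113 CPM with Runx2, 3.30-fold (2.56 to 4.30), and in the 12-16-month mutant at 13.2 and 47.1 CPM, 3.57-fold (2.12 to 6.29). In the 12-16-month control it was at 40.2 and 63.8 CPM, 1.59-fold (0.953 to 2.68). Mutant over control at 3 months was thus 0.313 (0.242 to 0.399) in cells without Runx2 and 1.03 (0.869 to 1.22) in cells with it.

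Arntl mirrored Dbp at 3 months. In cells without Runx2 it was at 16.4 CPM in the control and 40.0 CPM in the mutant, 2.44-fold (1.81 to 3.28), and in cells with Runx2 at 25.9 and 27.2 CPM, 1.05-fold (0.740 to 1.52). The ratio of Dbp to Arntl in cells without Runx2 was 6.69, 0.857, 1.27 and 0.322, and in cells with Runx2 4.25, 4.16, 2.29 and 1.43. Within the 3-month mutant library, the intervals of this ratio without and with Runx2 did not overlap (0.617 to 1.19 and 3.34 to 5.21). Neither did those within the 12-16-month mutant (0.181 to 0.548 and 0.967 to 2.12), while those within each control library overlapped. Only in the 3-month control was the ratio of Dbp to Arntl lower with Runx2 (4.25) than without (6.69). Arntl alone, with over without Runx2, was 1.58 (1.097 to 2.24) in that control and 0.680 (0.504 to 0.919) in the 3-month mutant. For Arntl at 12-16 months both intervals included 1, at 0.882 in the control and 0.806 in the mutant. Whether the mice of a library were taken at the same hour is not given in the sources used here.

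Nr1d1 differed little by Runx2. The ratio with over without Runx2 was 0.940 (0.814 to 1.08), 1.08 (0.910 to 1.29), 0.794 (0.589 to 1.07) and 1.01 (0.780 to 1.31). It stayed lower in the mutant on both sides, 0.653 (0.558 to 0.762) without and 0.753 (0.641 to 0.886) with Runx2 at 3 months, and 0.509 (0.391 to 0.663) and 0.649 (0.486 to 0.873) at 12-16 months. Cry1 had lower levels with Runx2, at 15.6, 20.0, 14.7 and 16.2 CPM against 27.2, 35.7, 27.2 and 23.6 CPM. Its interval lay below 1 in the 3-month control (0.374 to 0.855) and the 3-month mutant (0.401 to 0.782), and included 1 at 12-16 months. Tef was at 50.6, 90.5, 63.8 and 50.6 CPM with Runx2 against 50.3, 43.4, 34.4 and 27.8 CPM without.

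**Figure D5:**
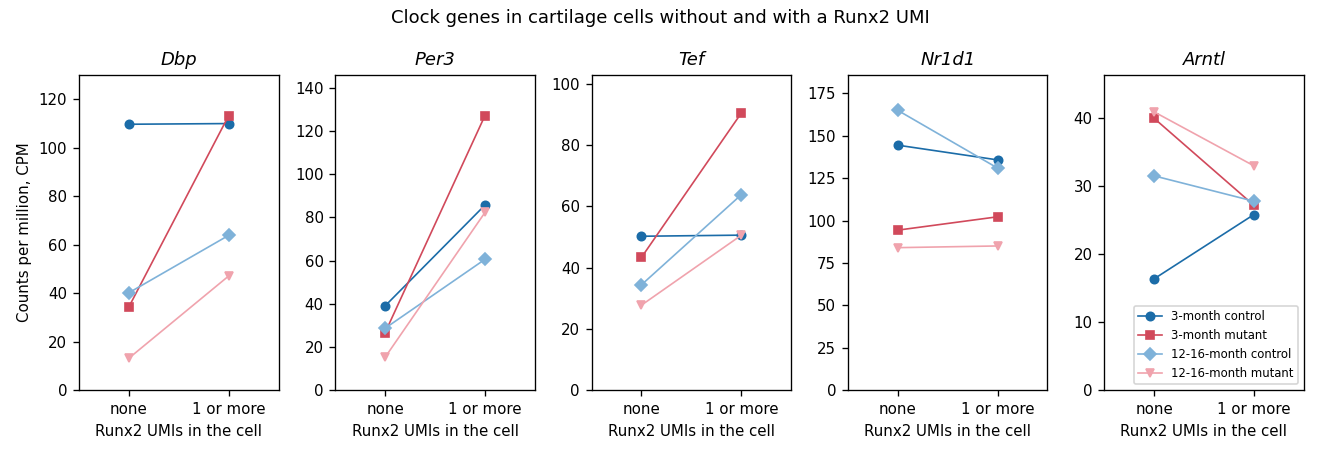
Level of Dbp, Per3, Tef, Nr1d1 and Arntl (CPM, axes from 0) in cartilage cells with no and with 1 or more Runx2 UMIs, each line joining the values of 1 library. The lines of Per3 rise in every library, from 39.0 to 85.7 CPM in the 3-month control for instance, while that of Dbp is level in the 3-month control and rises from 34.3 to 113 CPM in the 3-month mutant.

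Other gene groups moved between the same libraries. The summed level of 10 glucocorticoid targets in cartilage cells was 1588, 2739, 1478 and 2119 CPM, highest in the 3-month mutant as Per1 and Per3 were. Fkbp5, a cochaperone of the glucocorticoid receptor, was at 17.3, 330, 24.5 and 71.3 CPM, a mutant to control ratio of 19.1 (16.1 to 22.8) in the younger pair and of 2.91 (2.00 to 4.37) in the older pair. Zbtb16, another target, was at 58.5, 391, 65.7 and 119 CPM. Of the 10 targets in cartilage, 7 were higher and 3 lower in the 3-month mutant than in its control. Klf9, 1 of those lower, was at 141, 93.8, 94.0 and 114 CPM. In bone/stroma cells the sum was 915, 796, 486 and 1058 CPM. It was lower in the 3-month mutant than in its control, while Per1 and Per3 were higher in that mutant. The targets were split there: from the 3-month control to the 3-month mutant, Fkbp5 went from 35.5 to 166 CPM and Errfi1 from 391 to 122 CPM. Of 9 targets with enough UMIs, 3 were 2-fold higher in that mutant and 2 were 2-fold lower, where 36.1% of all genes were 2-fold apart. At 12-16 months, 6 of 9 targets in bone/stroma were 2-fold higher in the mutant and 0 lower, where 17.8% of all genes were 2-fold apart. Of the list's genes with enough UMIs in cartilage, 4 of 10 were 2-fold apart between mutant and control at 3 months, where 17.6% of all genes were, and 3 of 9 at 12-16 months, where 8.15% were. All 7 of these calls in cartilage were higher in the mutant, and Fkbp5 and Tsc22d3 were called at both ages. The list was chosen with earlier results of these data known. The sum of 17 immediate early and stress genes, which tissue digestion can raise, was 29252, 18617, 21821 and 17427 CPM in cartilage, highest in the 3-month control as Dbp was. It was 8866, 5530, 2189 and 2487 CPM in bone/stroma. For mutant over control at 3 months, 14 of the 17 were lower and 3 higher in cartilage. Hspa1b was at 1.71 (1.65 to 1.78) and Dnajb1 at 1.36 (1.28 to 1.46). The split was 13 and 4 in bone/stroma, with Hspa1b at 3.82 (3.13 to 4.71). The part of either group in the levels of the clock genes was not tested.

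Of the wider clock list, 5 of 18 genes in cartilage were 2-fold apart between mutant and control at 3 months: Npas2 as given above, Rora 2.10 (2.02 to 2.20) and Hlf 2.28 (1.76 to 2.95) higher, and Bhlhe40 0.485 (0.450 to 0.522) and Arntl2 0.479 (0.277 to 0.796) lower. At 12-16 months 2 of 16 were, both higher: Nfil3, a repressor at D-boxes, 2.44 (1.39 to 4.56), and Wee1, a cell cycle kinase with E-boxes, 2.04 (1.15 to 3.85). Between ages, Fbxl21 and Timeless were 3.16 (1.44 to 6.56) and 3.16 (1.17 to 7.82) times as high in the older control, from 24 or fewer UMIs a library, and Hlf was 0.317 (0.199 to 0.485) times as high in the older mutant. Of all genes counted so, 17.6% were 2-fold apart between mutant and control at 3 months and 8.15% at 12-16 months. Between ages, 2 of 18 genes of the list were in the control, against 12.1% of all genes, and 1 of 18 in the mutant, against 11.5%. Neither of these counts between ages stood above its background.

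Over the 8 sums (2 cell classes in 4 libraries), the genes with a pattern most like Dbp among 9528 with at least 200 UMIs were Mrgprf (Pearson r = 0.991 of log2(CPM + 1)), Clip1 (0.984), Nr4a2 (0.980), Pi4k2a (0.980) and Tuba1c (0.972). Those most like Arntl were Ppip5k1 (0.886), Togaram1 (0.875), Tab3 (0.856), Macrod2 (0.845) and Prune1 (0.819). No other clock gene was among either 5. The sums share libraries, and each r is the highest of many, so they are a description.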

How the data were processed

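Single-cell RNA-seq counts of 4 mouse spine libraries (10x 3′ kit, version 3.1) were used as deposited by the authors: whole-number UMI counts per gene and cell, made with Cell Ranger 8.0.0 per the file headers on mm10 with tdTomato added. The authors' later correction for free RNA was not repeated, and no doublet caller was run. Leaving out the 5% of cells with the most UMIs was an alternative. The filter kept cells above 750 UMIs and above 500 genes, with a mitochondrial share below 7%. Counts were summed per library and cell class. Libraries were compared by CPM with exact Poisson intervals and by ratios with exact conditional binomial intervals (95%), which cover counting error only; "2-fold apart" needed at least 20 UMIs over both libraries, and a count of 0 was set to a floor of 3 per library. Cell classes were compared with edgeR 4.0.16 (R 4.3.3, TMM, filterByExpr, quasi-likelihood test, two-sided, library as a term, Benjamini-Hochberg over 9798 genes, called under 0.05), with DESeq2 1.42.0 as an alternative. Each SE is the size of the log2 difference divided by the square root of its quasi-likelihood F statistic. On simulated data the test recovered few of the 2-fold changes, so a gene not called may still differ. Both classes of a library are different cells of the same suspension, which is where the pairing comes from. The p-values rest on the spread of the class difference over these libraries, which differ in condition.

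The genes named are all 10 clock genes, genes of the wider clock list that were called or 2-fold apart in cartilage, the 5 genes most like Arntl and Dbp, and the most abundant or most changed genes of the other lists. Some genes that ran against the sum of their list are named too, as is Ciart, given beside Timeless. A further gene of the wider clock list is not reported here, and counts over that list leave it out. The genes, lists and division by Runx2 were chosen with earlier results of these data known. Counts of 3′ ends are not scaled by length, so levels were compared within a gene. In GENCODE vM21 (GRCm38), Nr1d1 overlaps Thra, Dbp overlaps Sphk2, and Arntl and Tef each overlap an antisense gene, all on the opposite strand, and Per3 overlaps Camta1 on the same strand, so reads of Per3 and Camta1 may be split between them.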

Additional observations from a re-analysis of the deposited data

Results flagged for a closer look

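Nr1d2 in cartilage cells moved in opposite directions with the mutant label at the ages studied: mutant over control was 1.14 (95% counting interval 1.02 to 1.28) at 3 months and 0.667 (0.522 to 0.855) at 12-16 months. In cells with no Runx2 UMI it was 0.851 (0.709 to 1.02) and 0.625 (0.433 to 0.906), below 1 at both ages. In cells with a Runx2 UMI the directions stayed opposite. Nr1d2 was there at 91.6 CPM in the control and 116 CPM in the mutant at 3 months, and at 94.9 and 66.1 CPM at 12-16 months. With TMM factors the value of all cartilage cells at 3 months was 0.09 on the log2 scale. With 1 library per condition, the difference was not tested. No group had enough samples for a check of single samples that stand apart.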

How the results depend on the processing

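Of the 7 clock genes called higher in cartilage by edgeR, Per1, Per2, Nr1d1 and Dbp stayed under 0.05 in all 11 alternatives, Nr1d2 in 10, Per3 in 6 and Tef in 5. Cry1 was under 0.05 in 3, and Arntl and Clock in 0. The count of 7 was 4 to 7 when single libraries were left out, with 4 without the 12-16-month control. It was 7 with DESeq2, without a filter on low counts, with no replicate block (7, the same fit without the library term), and with stricter gates, 5 in cells free of Ptprc, Acta2 and Cdh5 UMIs, and 6 and 7 in cartilage without and with Runx2. The block moved 2 calls: without it Per3 had an adjusted p of 0.0600 and Cry1 of 0.0317. Cry1 also entered the counts with stricter gates and in cartilage without Runx2 (edgeR adjusted p = 0.0410 and 0.0118). Tef was called in neither of these settings, and Per3 was not called in the latter. In cartilage without Runx2 the log2 difference of Per3 turned to -0.0714 (adjusted p = 0.903). In bone/stroma free of other-type UMIs, Nr1d1 in mutant over control at 3 months turned to a log2 ratio of 0.92, where all bone/stroma cells held 6 and 15 UMIs. The cause was not tested in either case.

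Counts of clock genes 2-fold apart in cartilage were as follows. Mutant over control at 3 months, 0 as reported, gave 1 with cells weighted equally and 2 without Runx2. At 12-16 months, 1 gave 3 with equal weights, 2 without the cells of most UMIs, 2 without Runx2 and 0 with Runx2. Age in the control, 1, gave 0 with equal weights, 0 without the cells of most UMIs and 0 with Runx2. Age in the mutant, 1, gave 2 and 2 under the first pair of these. In bone/stroma, mutant over control at 3 months, 3, gave 1 with TMM factors, 1 without the cells of most UMIs and 1 with stricter gates. At 12-16 months, 1 gave 0 with stricter gates and 2 in cells free of other-type UMIs. Age in the control, 0, gave 1 with equal weights. Age in the mutant, 1, gave 0 with equal weights, 2 with stricter gates and 3 in cells free of other-type UMIs.

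The ratio of Dbp to Arntl in cartilage moved in the 3-month control to 4.25 with Runx2. In the 3-month mutant it moved to 1.82 with equal weights, 0.857 without and 4.16 with Runx2. In the 12-16-month mutant it moved to 0.569, 0.322 and 1.43 under the same settings. In other cells, equal weights gave 0.254 in the 3-month control and 5.82 in the 12-16-month control. The remaining 43 of 52 values of this ratio kept within counting error. The cells with Runx2 were added after seeing the data. Bone/stroma counts of 5 to 88 UMIs a library limit what can be seen there.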
